A study of Mus musculus with 12 samples.

Results

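*Ebf1*, *Ebf2* and *Ebf3* were followed as 3 of the 4859 genes in the deposited gene expression table, chosen by their symbols and measured in every library. The table comes from bulk RNA-seq of mouse embryonic cortex, with a further table of 200 lncRNA transcripts. All embryos carried the BAC reporter transgene Tg(Ebf2-EGFP)FB58Gsat, in which *Ebf2* regulatory sequence drives EGFP, and dissociated cortical cells of these embryos were separated by FACS into fluorescent (Ebf2-EGFP+) and non-fluorescent (Ebf2-EGFP-) cells at embryonic stages E11.5, E13.5 or E15.5. According to the study, the make-up of both populations changed with stage. Fluorescent cells were mostly preplate neurons at E11.5, of both subplate and Cajal-Retzius type. The reporter was fading from subplate neurons at E13.5, and by E15.5 most fluorescent cells were Cajal-Retzius neurons. Non-fluorescent cells were mostly progenitors at E11.5 and included cortical plate neurons later. Each of the 6 groups held 2 libraries, labelled replicate 1 and replicate 2. According to the study's methods, each experiment pooled several embryos of several litters. Both populations thus carried the same transgene and came from the same dissections, no allele was deleted and no agent was given. The sort itself followed the *Ebf2* reporter, so the level of *Ebf2* in the sorted cells is a check of the sort and not a result independent of it.

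The EBF proteins, also called Olf/EBF or COE factors, are transcription factors with a zinc-containing DNA-binding domain and a helix-loop-helix dimerization domain. They bind as homodimers or heterodimers to a palindromic site and are known for their roles in B cell commitment, in olfactory neurons, in adipocytes and in newly born neurons that leave the ventricular zone. In the embryonic cortex, *Ebf2* and *Ebf3* mark Cajal-Retzius (CR) neurons, the reelin-secreting cells of the marginal zone, while *Ebf1* is best known in the brain from differentiating striatal neurons and in the periphery from B cells and mesenchyme. EBF1 is the founding member that drives B cell identity, EBF2 is required in the migration of several neuron types and in brown fat, and EBF3 is an early neuronal differentiation factor.

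In GRCm38 (the same assembly as mm10), the annotation places *Ebf1* on chromosome 11 from 44617317 to 45008091 on the plus strand, *Ebf2* on chromosome 14 from 67233292 to 67430918 on the plus strand, and *Ebf3* on chromosome 7 from 137193673 to 137314445 on the minus strand. The 3 genes thus lie on different chromosomes. RefSeq promoter windows of 250 bases upstream were at hand for *Ebf3* (1 window) and *Ebf1* (2 windows). The stretch just upstream of *Ebf3* is shown because *Ebf3* had the highest level of the 3 genes in Ebf2-EGFP+ cells at the later stages, and it covers chr7:137314454-137314695 on the minus strand of GRCm38.p6, with a CArG box, the site of serum response factor, in capitals.
*Ebf3* upstream: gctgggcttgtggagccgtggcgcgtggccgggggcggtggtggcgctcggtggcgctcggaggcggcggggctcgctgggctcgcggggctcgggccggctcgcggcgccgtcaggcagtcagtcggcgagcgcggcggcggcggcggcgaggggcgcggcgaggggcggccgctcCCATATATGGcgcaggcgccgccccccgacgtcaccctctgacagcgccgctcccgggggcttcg
These 242 bases held 81.4% G and C. The whole 250-base *Ebf3* window held 80.0%, more than 98.8% of 32851 promoter windows, against 40.0% and 52.0% in the *Ebf1* windows. Searched on both strands, a CArG box stood in 1.47% of all windows and the palindromic EBF consensus, TCCC and GGGA with 2 free bases between them, in 0.779%, and no *Ebf1* or *Ebf3* window held the latter. The E-box CANNTG, the site of proneural basic helix-loop-helix factors, stood in 66.2% of all windows and once among the *Ebf1* windows. These matches describe letters of the sequence and do not show binding.

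Levels are FPKM, fragments scaled to transcript length and to the mapped fragments of the library, so that levels of different genes can be set side by side. Differences were taken between values of log2(FPKM + 1) by limma, in a fit of all 12 libraries as 6 groups, and a gene was called at a Benjamini-Hochberg adjusted p under 0.05 over the 4859 genes. Adding 1 makes these log2 differences understate the change of weakly expressed genes, so ratios of the untransformed mean FPKM are given too. The table holds only genes that the authors listed as differential, which is why the share of genes called is large, and this share is therefore printed beside counts of members or listed genes. According to the study, these genes were selected as differing between the sorted populations in these same libraries. Calls of a population difference given here, also for the members, are thus not independent evidence of it. The study's methods give an average number of reads per sample, but how deeply each single library was sequenced is unknown here. FPKM summed over the listed genes lay between 111136 and 146703 per library. Median-of-ratios scaling raised the median difference of all genes between the populations by 0.19, 0.19 and 0.13 at the 3 stages and the median change from E11.5 to E13.5 in Ebf2-EGFP+ cells by 0.16. With it, limma called 1343 genes higher and 1446 lower for that change, against 1057 and 1755 without it. All 12 CR marker genes of a list were in the table. Of these 10, 11 and 12, in the order of the stages, were higher in Ebf2-EGFP+ cells, against 36.8%, 32.1% and 25.8% of all genes. The list was chosen with earlier results of these data known. It holds *Nhlh2*, which the study named CR-specific from these same libraries, so the counts are no independent check of the sort. All 8 radial glia markers were lower there at each stage, and of 10 ganglionic eminence or interneuron markers 10, 10 and 9 were lower, against 44.9%, 43.5% and 31.6% of all genes. Of 7 cortical plate neuron markers, 4, 6 and 4 were higher in Ebf2-EGFP+ cells, against 36.8%, 32.1% and 25.8% of all genes. At E15.5, 1 of the 7 was lower, against 31.6% of all genes. Their summed FPKM at that stage was 742 to 1087 in Ebf2-EGFP+ libraries and 762 to 919 in Ebf2-EGFP- libraries.

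*Ebf2*, the gene whose regulatory sequence drove the reporter, was found at 61.2 and 49.1 FPKM in Ebf2-EGFP+ replicates 1 and 2 at E11.5 and at 1.17 and 0.952 FPKM in Ebf2-EGFP- cells. At E13.5 the Ebf2-EGFP+ libraries held 6.66 and 4.32 FPKM of *Ebf2* and the Ebf2-EGFP- libraries 1.54 and 1.05 FPKM. At E15.5 the values of *Ebf2* were 2.83 and 5.14 FPKM against 0.103 and 0.0644 FPKM. The populations did not overlap at any stage, and both E11.5 Ebf2-EGFP+ libraries stood far above every other library. The ratio of mean *Ebf2* FPKM between the populations was 51.9 at first, 4.25 at E13.5 and again 47.6 at E15.5. The log2 difference was 4.76 (standard error 0.25, limma adjusted p = 6.25e-08), then 1.49 (adjusted p = 0.000253) and 2.16 (adjusted p = 3.3e-05). The labels of the sort were thus borne out by *Ebf2* mRNA at each stage.

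*Ebf3*, which was not used in the sort but is in the table because the authors listed it as differential, showed the same separation. At E11.5 *Ebf3* was measured at 45.4 and 45.1 FPKM in Ebf2-EGFP+ cells and at 2.19 and 1.75 FPKM in Ebf2-EGFP- cells. The E13.5 libraries held 10.3 and 9.36 FPKM of *Ebf3* against 1.51 and 1.40 FPKM, and the E15.5 libraries 13.9 and 20.02 FPKM against 0.956 and 0.539 FPKM. Every Ebf2-EGFP+ library was therefore above every Ebf2-EGFP- library of any stage. The ratios of mean *Ebf3* FPKM were 23.0, 6.75 and 22.7, and the log2 differences 3.96 (standard error 0.20, limma adjusted p = 5.39e-08), 2.14 (adjusted p = 6.39e-06) and 3.35 (adjusted p = 5.78e-07). Ranked by log2 difference among the 4859 genes, *Ebf3* was the 25th highest at E11.5, the 59th at E13.5 and the 10th at E15.5, while *Ebf2* moved from the 12th to the 237th and the 67th place.

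*Ebf1* parted from its paralogs. At E11.5 it was found at 22.3 and 20.3 FPKM in Ebf2-EGFP+ cells and at 6.31 and 8.41 FPKM in Ebf2-EGFP- cells, with no overlap. At E13.5 the *Ebf1* values were 2.24 and 1.28 FPKM in Ebf2-EGFP+ cells and 2.13 and 2.07 FPKM in Ebf2-EGFP- cells, and at E15.5 they were 1.06 and 0.661 FPKM against 0.777 and 0.540 FPKM. The populations overlapped at both later stages. *Ebf1* was higher in Ebf2-EGFP+ cells at E11.5 by 1.43 on the log2 scale (standard error 0.21, limma adjusted p = 6.4e-05), a ratio of mean FPKM of 2.89. No difference of *Ebf1* between the populations was called at E13.5, where it was -0.19 with a 95% interval of -0.65 to 0.27, nor at E15.5, where it was 0.16 with an interval of -0.30 to 0.62. Median-of-ratios scaling moved the E13.5 value to 0.01, and leaving out Ebf2-EGFP+ replicate 2 of that stage moved it to 0.06.

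**Figure D1:**
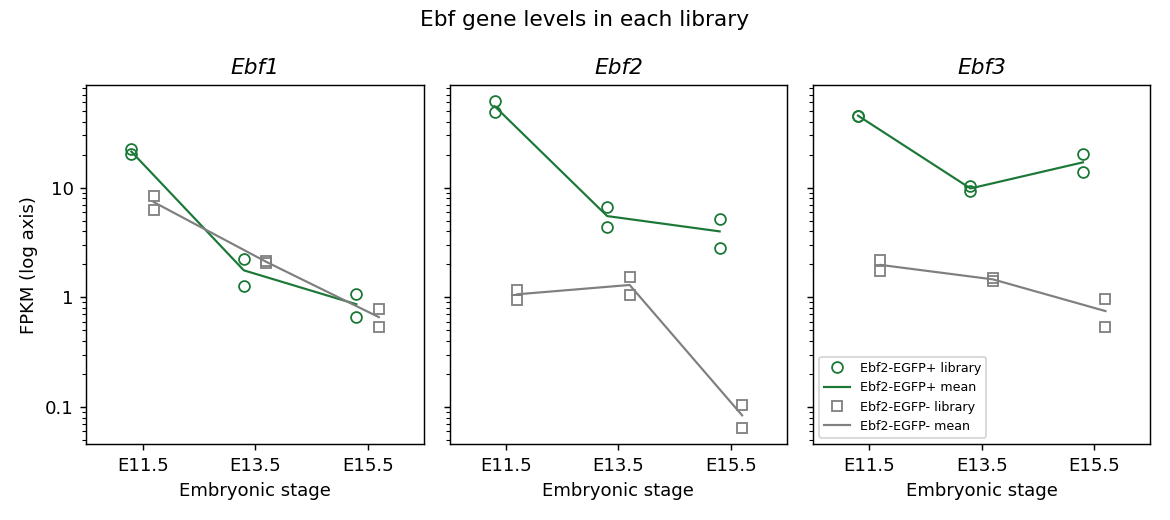
FPKM of *Ebf1*, *Ebf2* and *Ebf3* (log axis) by embryonic stage, with circles for Ebf2-EGFP+ libraries, squares for Ebf2-EGFP- libraries and lines through the group means (n = 2). *Ebf2* and *Ebf3* stay apart between the populations at each stage, whereas the *Ebf1* libraries overlap at E13.5 and E15.5.

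By the limma test all 3 genes were higher in Ebf2-EGFP+ cells at E11.5, where 36.8% of all genes were called higher. At E13.5 and E15.5 this held for 2 of the 3, against 32.1% and 25.8% of all genes. *Ebf2* and *Ebf3* were called higher at all 3 stages, as were 14.6% of all genes, and at each stage both fluorescent libraries exceeded both non-fluorescent ones for them, as for 23.3% of all genes.

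In Ebf2-EGFP+ cells the 3 genes fell sharply from E11.5 to E13.5. The ratio of mean FPKM at E11.5 to that at E13.5 was 12.1 for *Ebf1*, 10.04 for *Ebf2* and 4.61 for *Ebf3*. On the log2 scale *Ebf1* fell by 3.04 (standard error 0.21, limma adjusted p = 8.15e-07), *Ebf2* fell by 3.13 (standard error 0.25, adjusted p = 2.13e-06) and *Ebf3* fell by 2.10 (standard error 0.20, adjusted p = 6.66e-06). These 3 calls compare with 36.1% of all genes called lower over the same step. All 7 cortical plate neuron markers were called higher over it, against 21.8% of all genes. In Ebf2-EGFP- cells 6 of these 7 were called higher over the same step, against 26.0% of all genes. Of 5 subplate markers in the table, 2 were called lower and 1 higher in Ebf2-EGFP+ cells, against 36.1% and 21.8% of all genes. Sorted by the size of the fall, *Ebf2* and *Ebf1* held places 25 and 27 among the 4859 genes and *Ebf3* place 87. In these bulk samples, fewer cells of a type that holds the mRNA and less mRNA per cell cannot be told apart.

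The step from E13.5 to E15.5 divided the 3 genes. *Ebf3* rose again in Ebf2-EGFP+ cells, by 0.71 on the log2 scale (standard error 0.20, limma adjusted p = 0.0131), from 9.81 ± 0.645 to 17.0 ± 4.30 FPKM (SD, n = 2), with both E15.5 libraries above both E13.5 libraries. *Ebf2* was not called over this step, with a change of -0.40 and a 95% interval of -0.94 to 0.15, and its libraries overlapped. *Ebf1* lay lower in both E15.5 libraries and its change of -0.55 narrowly missed the threshold (limma adjusted p = 0.0524). The rise of *Ebf3* was among the 24.6% of all genes called higher, and the call was lost without Ebf2-EGFP+ replicate 2 of E13.5 (0.65, adjusted p = 0.0678) or of E15.5 (0.47, adjusted p = 0.122). Falling and then rising in this way, by the calls of both steps, was found for 4.67% of all genes and for 1 of the 3.

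CR marker genes moved along with *Ebf3* in these cells. From E11.5 to E13.5, 9 of the 12 CR markers were lower and 1 was higher, against 36.1% and 21.8% of all genes. From E13.5 to E15.5, 10 were higher and 1 was lower, against 24.6% and 17.3% of all genes. *Trp73*, a p53 family gene of CR neurons, measured 32.7 and 36.9 FPKM in the E11.5 libraries, dropped to between 11.98 and 12.9 in those of E13.5 and reached 41.9 and 54.6 by E15.5. *Lhx5*, a LIM homeobox gene of the same cells, went from at least 21.5 FPKM to at most 4.06 and back to at least 20.8 FPKM. Other CR markers stayed lower at E15.5 than at E11.5, as *Ebf3* did: over the whole interval 6 of the 12 were called lower and 4 higher, against 42.1% and 33.3% of all genes. *Reln*, the defining product of CR neurons, did not dip and went from at most 76.3 FPKM at E11.5 to at least 399 at E15.5. The part of CR cell numbers in the course of *Ebf3* was not tested.

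Over the whole interval from E11.5 to E15.5 in Ebf2-EGFP+ cells, all 3 genes were called lower, against 42.1% of all genes. *Ebf1* fell by 3.59 on the log2 scale (limma adjusted p = 1.02e-07), *Ebf2* fell by 3.53 (adjusted p = 3.41e-07) and *Ebf3* fell by 1.38 (adjusted p = 5.95e-05). The ratios of mean FPKM at E11.5 to E15.5 were 24.7, 13.8 and 2.66. *Ebf3* thus kept the largest part of its E11.5 level.

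In Ebf2-EGFP- cells the genes started lower and took other courses. *Ebf1* fell at each step, by 1.42 on the log2 scale from E11.5 to E13.5 (limma adjusted p = 0.000164) and by 0.91 from E13.5 to E15.5 (adjusted p = 0.00338). It was the only member called lower over the earlier step, against 33.5% of all genes. *Ebf2* changed by 0.15 over that step, with a 95% interval of -0.40 to 0.69, and *Ebf3* by -0.27, with an interval of -0.70 to 0.16. From E13.5 to E15.5 all 3 were called lower, against 34.8% of all genes: *Ebf2* fell by 1.07 (adjusted p = 0.0034) and *Ebf3* fell by 0.50 (adjusted p = 0.043). The *Ebf3* call was fragile, since it was lost in 9 of 12 omissions of a library, after median-of-ratios scaling (adjusted p = 0.0644) and with the replicate number as a block (adjusted p = 0.0738).

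From E11.5 to E15.5 all 3 genes were called lower in Ebf2-EGFP- cells, against 47.6% of all genes, with log2 changes of -2.33 for *Ebf1*, -0.93 for *Ebf2* and -0.77 for *Ebf3*. On the FPKM scale the ratio of *Ebf2* means was larger, 12.7, because its E15.5 libraries lay near 0. A fall in both populations over the whole interval, found here for 3 of 3 genes, was called for 32.7% of all genes. The stage comparisons of a population share libraries with each other and with the comparisons between the populations.

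**Figure D2:**
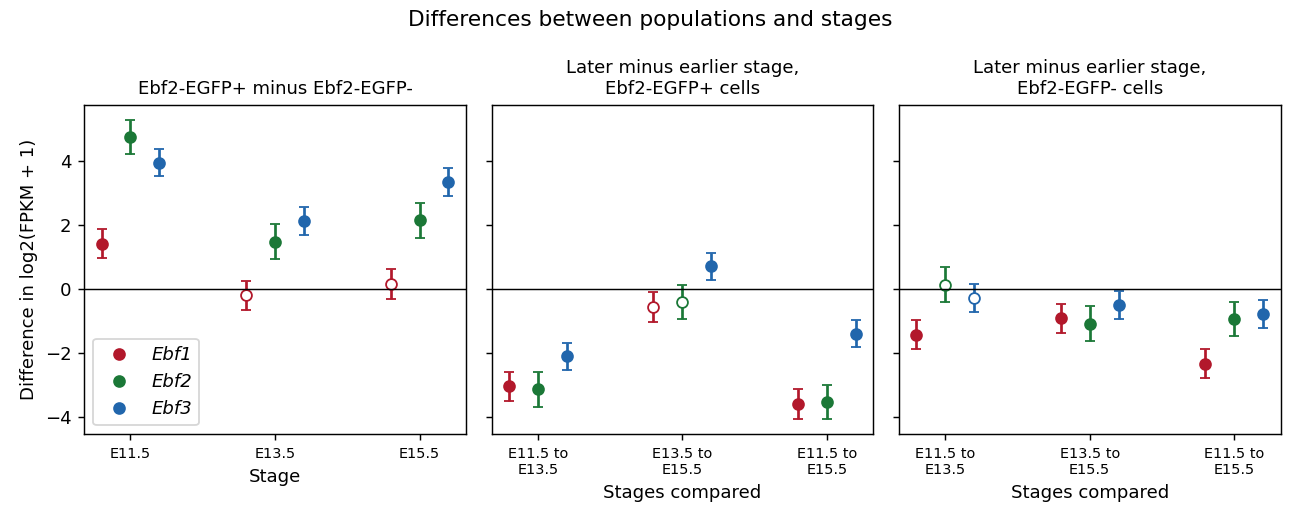
Difference in log2(FPKM + 1) between the populations at each stage (left) and between stages in Ebf2-EGFP+ cells (middle) and Ebf2-EGFP- cells (right), with 95% intervals from limma, filled points where the gene was called and open points where it was not. From E13.5 to E15.5 *Ebf3* is the only member with a positive change in Ebf2-EGFP+ cells, at 0.71.

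Whether the population difference itself changed between stages was tested as an interaction. From E11.5 to E13.5 it shrank for all 3 genes, against 19.6% of all genes with a fall of the difference. The change was -3.27 for *Ebf2* (standard error 0.35, limma adjusted p = 6.93e-05), -1.83 for *Ebf3* (standard error 0.28, adjusted p = 0.000543) and -1.62 for *Ebf1* (standard error 0.30, adjusted p = 0.00168). *Ebf2* had the 25th most negative value of the 4859 genes. From E13.5 to E15.5 the difference widened for *Ebf3* alone of the 3 by the test, by 1.21 (standard error 0.28, adjusted p = 0.0193), a direction called for 9.14% of all genes. The number of genes called in either direction in this comparison was 610 and depended on the fit, from 125 to 1135 when a library was left out and 1775 with the replicate number as a block. That call was lost in a fit of the 4 compared groups only (adjusted p = 0.0731) and when E13.5 Ebf2-EGFP+ replicate 2, E13.5 Ebf2-EGFP- replicate 1 or either replicate 2 of E15.5 was left out (adjusted p from 0.0628 to 0.0744). For *Ebf2* the change was 0.68, with a 95% interval of -0.09 to 1.45, and with a pseudocount of 0.1 it was 2.43 and called (adjusted p = 0.0139). For *Ebf1* it was 0.35, with an interval of -0.30 to 1.00.

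Ordering the 6 groups by mean level separated the genes further. *Ebf1* was ordered by stage, with both E11.5 groups above both E13.5 groups and these above both E15.5 groups, while neighbours of the same stage overlapped at E13.5 and E15.5. *Ebf2* and *Ebf3* were ordered by population, with the 3 Ebf2-EGFP+ groups above the 3 Ebf2-EGFP- groups. Among the *Ebf2* groups, the E13.5 and E15.5 Ebf2-EGFP+ libraries overlapped, as did the E11.5 and E13.5 Ebf2-EGFP- libraries. For *Ebf3* no neighbouring groups overlapped, although the neighbours at E11.5 and E13.5 in Ebf2-EGFP- cells were not called as different (limma adjusted p = 0.247).

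The make-up of *Ebf* mRNA shifted along with its amount. The 3 genes summed to 129 and 114 FPKM in the E11.5 Ebf2-EGFP+ libraries, to 19.2 and 14.96 FPKM at E13.5 and to 17.8 and 25.8 FPKM at E15.5. *Ebf2* supplied 47.5% and 42.9% of this sum at E11.5 and was the most abundant of the 3. *Ebf3* supplied 35.2% and 39.4% in the E11.5 libraries, 53.6% and 62.6% in those of E13.5, and finally 78.2% and 77.5%. *Ebf1* went from 17.3% and 17.7% to 5.97% and 2.56%. The ratio of *Ebf3* to *Ebf2* FPKM rose from 0.742 and 0.919 through 1.54 and 2.16 to 4.92 and 3.898 without overlap between the stages. These shares are given without a test.

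In Ebf2-EGFP- cells the summed level of the 3 genes was 9.67 and 11.1 FPKM at E11.5, 5.18 and 4.52 FPKM at E13.5 and 1.84 and 1.14 FPKM at E15.5. *Ebf1* made up 65.2% and 75.7% of it at E11.5 and was the most abundant member at E13.5, with 41.2% and 45.7%. At E15.5 *Ebf3* supplied 52.1% and 47.1% and *Ebf1* 42.3% and 47.2%, so that the order of these 2 genes differed between the replicates. *Ebf2* supplied 5.61% and 5.63% there.

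**Figure D3:**
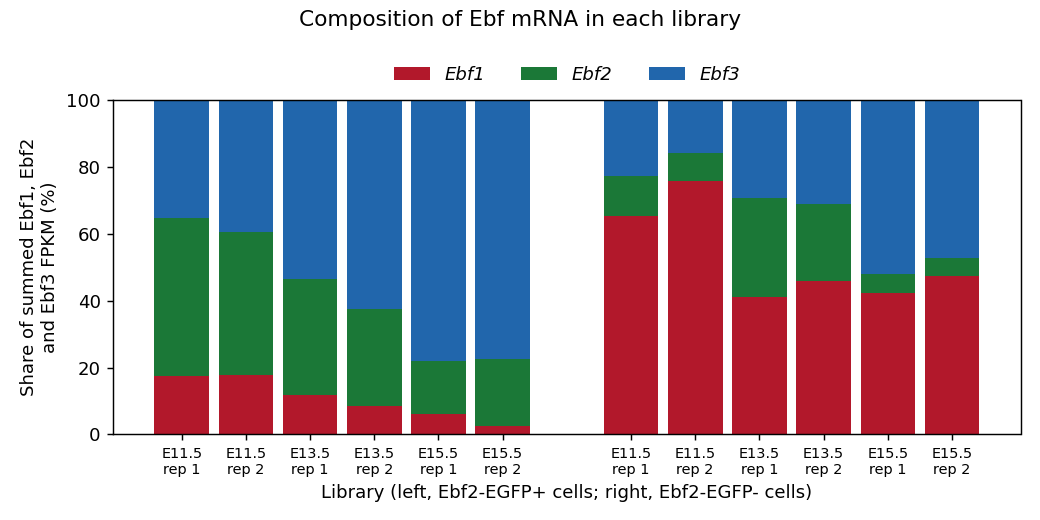
Share of *Ebf1*, *Ebf2* and *Ebf3* in their summed FPKM (percent) in each of the 12 libraries, Ebf2-EGFP+ on the left and Ebf2-EGFP- on the right. *Ebf3* reaches 78.2% and 77.5% in the E15.5 Ebf2-EGFP+ libraries, and *Ebf1* holds 65.2% and 75.7% in the E11.5 Ebf2-EGFP- libraries.

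*Ebf4*, the fourth paralog, was also in the table and is given although it was chosen after its values were seen. In Ebf2-EGFP+ cells it measured 2.02 and 2.93 FPKM in the E11.5 libraries, then 2.63 and 1.92, and last 1.60 and 2.08. In Ebf2-EGFP- cells *Ebf4* measured 3.74 and 4.77, 6.56 and 5.78, and 4.66 and 4.19 FPKM. It ran opposite to *Ebf2* and *Ebf3* and was lower in the fluorescent cells throughout, by log2 differences of -0.60, -1.14 and -0.94 (limma adjusted p = 0.0138, 0.000313 and 0.00184). No change of *Ebf4* between stages was called in either population, and the smallest adjusted p of these 6 comparisons was 0.0648.

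Zinc finger proteins that bind EBF and modulate its activity were taken as a list of 2. *Zfp423*, whose product associates with EBF1, was at 31.6 and 33.6 FPKM in the E11.5 Ebf2-EGFP+ libraries and at 30.5 and 23.5 FPKM in the Ebf2-EGFP- libraries of that stage. At E15.5 *Zfp423* stood at 10.4 and 7.74 FPKM and at 9.60 and 7.49 FPKM. It fell in both populations, by 1.75 (limma adjusted p = 6.04e-06) and by 1.55 (adjusted p = 1e-05) on the log2 scale, and no population difference was called at any stage.

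*Zfp521*, a close relative of *Zfp423* that acts as an EBF1 antagonist in B cells and adipocytes, followed another course. It measured 18.0 FPKM in both Ebf2-EGFP+ libraries and 23.7 and 20.2 FPKM in Ebf2-EGFP- cells at E11.5. At E13.5 *Zfp521* measured 17.8 and 36.8 against 9.59 and 10.4 FPKM, and at E15.5 30.5 and 18.2 against 7.37 and 4.15 FPKM. It was called higher in Ebf2-EGFP+ cells at E13.5 by 1.28 (limma adjusted p = 0.00388) and at E15.5 by 1.90 (adjusted p = 0.000482) but not at E11.5 (-0.27, adjusted p = 0.452), and at both later stages its Ebf2-EGFP+ replicates differed by a larger ratio than those of *Ebf3*. In Ebf2-EGFP- cells *Zfp521* fell by 1.80 from E11.5 to E15.5 (adjusted p = 0.000248).

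**Figure D4:**
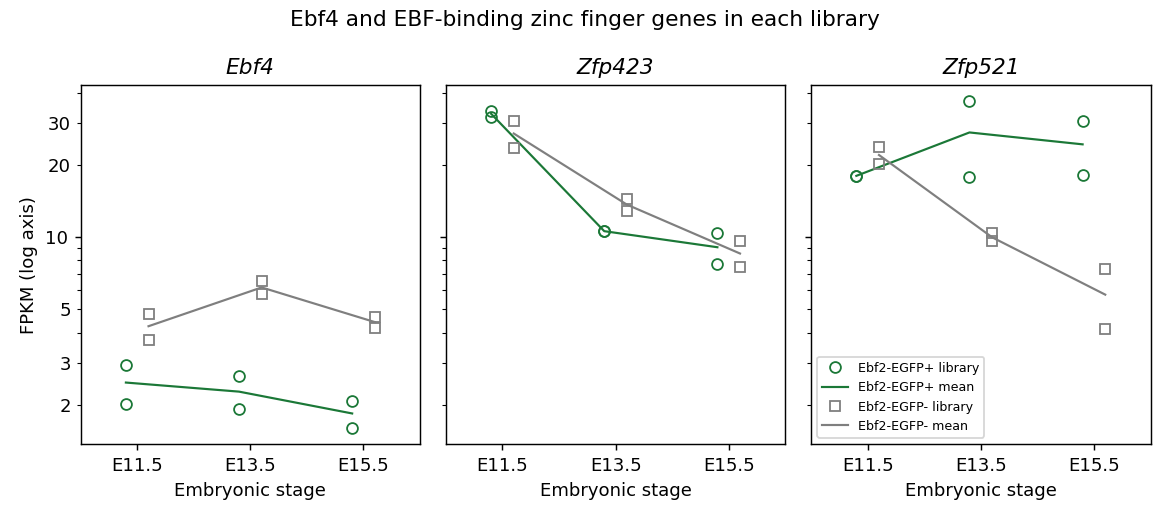
FPKM (log axis) of *Ebf4*, *Zfp423* and *Zfp521* by embryonic stage, with circles for Ebf2-EGFP+ libraries, squares for Ebf2-EGFP- libraries and lines through the group means (n = 2). *Ebf4* is lower in Ebf2-EGFP+ cells throughout, *Zfp423* falls in both populations, and *Zfp521* parts between them after E11.5.

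Transcription factors known to act upstream of or beside EBF genes, namely proneural factors and regulators of CR fate, made a list of 14, and all were in the table. Set against Ebf2-EGFP- cells, 6 of them were higher and 2 lower at E11.5, none was higher and 10 were lower at E13.5, and 2 were higher and 10 lower at E15.5. Of all genes 36.8%, 32.1% and 25.8% were called higher and 44.9%, 43.5% and 31.6% lower at these stages. Within Ebf2-EGFP+ cells, 13 of the 14 fell from E11.5 to E15.5 and none rose, against 42.1% and 33.3% of all genes, with a median log2 change of -1.94 against -0.18 over all genes. *Neurog2*, the proneural factor of cortical glutamatergic neurons, measured 34.8 to 34.9 FPKM in the E11.5 and 3.83 to 7.22 FPKM in the E15.5 Ebf2-EGFP+ libraries. *Eomes*, a T-box factor of intermediate progenitors, was higher in Ebf2-EGFP+ cells at E11.5 by 3.72 (limma adjusted p = 1.08e-06) and lower at E15.5 by a log2 difference of -3.38 (adjusted p = 6.12e-06), whereas *Ebf2* and *Ebf3* kept their direction.

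The genes whose profiles over the 12 libraries were most like each *Ebf* gene were found by Pearson's r of log2(FPKM + 1). They are given as a description since the libraries form only 6 groups. That they share the course of their *Ebf* gene follows from this choice. For *Ebf1* these were *Arid3b* (r = 0.990), an AT-rich interaction domain factor, *Robo3* (0.982), an axon guidance receptor, *Rmst* (0.978), a neural noncoding transcript, *Fezf1* (0.978), a forebrain zinc finger factor, and *Tnnt1* (0.978), a troponin. *Fezf1* measured 39.2 and 36.3 FPKM in the E11.5 Ebf2-EGFP+ libraries, 10.2 and 8.34 FPKM in the Ebf2-EGFP- libraries of that stage and at most 0.0164 FPKM in any E15.5 library.

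The genes nearest *Ebf2* were *Ipcef1* (r = 0.969), *Cntn4* (0.968), a contactin adhesion molecule, *Fam212b* (0.965), *Sel1l3* (0.960) and *Trim62* (0.960), a TRIM family protein. *Fam212b* measured 11.1 FPKM in both Ebf2-EGFP+ libraries at E11.5 against 0.250 and 0.265 FPKM, and at most 2.07 FPKM in any other library. Among lncRNAs, *Gm20675* (r = 0.906) was listed above 0 in 3 of 12 libraries, with 1.01 and 1.37 FPKM in the E11.5 Ebf2-EGFP+ libraries and 0.329 FPKM in Ebf2-EGFP+ replicate 1 at E13.5. *Gm26872* came next (r = 0.896), and *Gm9581* (r = 0.961) and *2900018N21Rik* (r = 0.938) were the lncRNAs nearest *Ebf1*.

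For *Ebf3* the nearest were *Rcan2* (r = 0.993), a calcineurin regulator, *Lhx1* (0.979), a LIM homeobox gene on the CR marker list, *Kcnj5* (0.978), a potassium channel subunit, *Eda2r* (0.970), a TNF receptor family member, and *Akap6* (0.962), an anchoring protein for protein kinase A. In Ebf2-EGFP+ cells *Rcan2* stood at 61.2 and 50.8 FPKM in the E11.5 libraries, 15.54 and 13.3 FPKM in those of E13.5 and 18.9 and 32.0 FPKM in the last, with at most 2.65 FPKM in Ebf2-EGFP- cells. The lncRNAs nearest *Ebf3* were *Gm28050* (r = 0.937) and *Gm27199* (r = 0.932). *Gm28050* measured 23.3 and 23.1, 5.89 and 3.77, and 12.4 and 12.99 FPKM in Ebf2-EGFP+ cells, a dip at E13.5 as for *Ebf3*.

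Among the members themselves, r was 0.929 between *Ebf2* and *Ebf3*, 0.709 between *Ebf1* and *Ebf2* and 0.489 between *Ebf1* and *Ebf3*. Among the 4859 genes, *Ebf3* was the 15th most similar to *Ebf2*, and *Ebf1* was only the 842nd most similar to *Ebf3*.

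**Figure D5:**
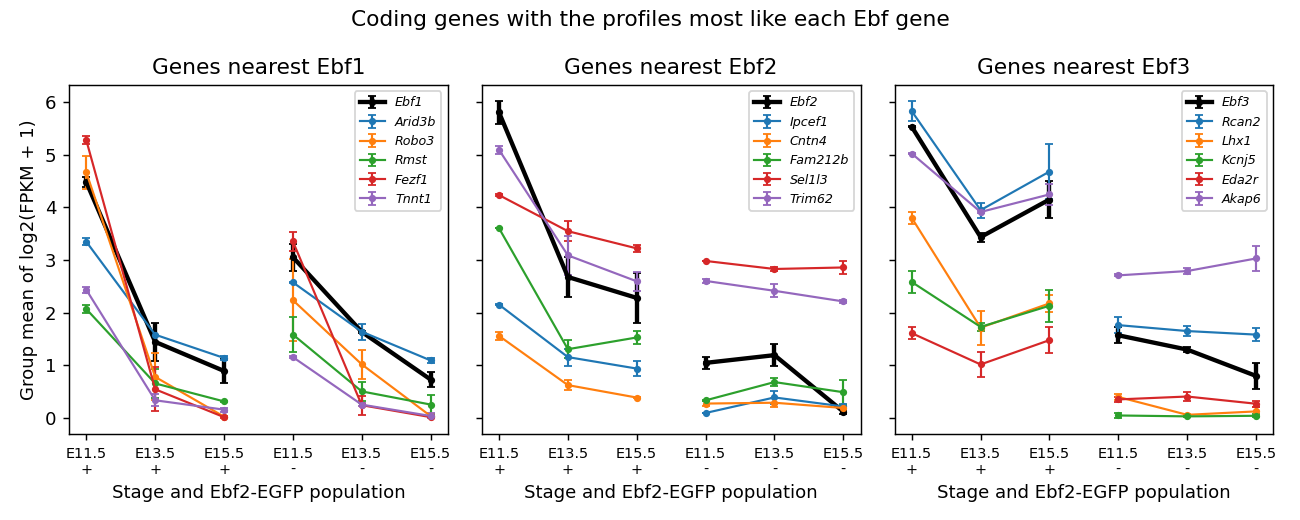
Group means of log2(FPKM + 1) with SD (n = 2) for each *Ebf* gene (black) and the 5 genes of the gene expression table with the highest r to it, Ebf2-EGFP+ groups on the left of each panel and Ebf2-EGFP- groups on the right. The genes nearest *Ebf1* fall in both populations, while those nearest *Ebf3* are lower in the Ebf2-EGFP- groups throughout, *Rcan2* at no more than 2.65 FPKM. This likeness follows from the choice of genes by r.

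Genes reported elsewhere as EBF2 targets in neurons induced with Neurog2 had been intersected by the study with genes of its single-cell clusters of Ebf2-EGFP+ cells. The resulting lists held 457 genes for the clusters named C157 and 611 for those named C0346, with 302 in both. Both were drawn from cells of the same transgenic line, sorted at E15.5, the last stage compared here. A rise towards E15.5 is thus partly set by the choice of genes, so their direction is not independent evidence. Of the listed names, 354 and 435 were in the table. From E11.5 to E15.5 in Ebf2-EGFP+ cells, 222 of the 354 rose and 81 fell, with a median log2 change of 0.98. Of the 435, 279 rose and 91 fell, with a median of 1.04. Over all genes 33.3% rose, 42.1% fell and the median was -0.18. In Ebf2-EGFP- cells, where *Ebf2* was at most 1.54 FPKM, 249 and 304 rose, against 37.7% of all genes, and 52 and 63 fell, against 47.6%. More listed targets rose than fell in both populations.

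The targets with the largest falls in Ebf2-EGFP+ cells were *Pbx3* (-5.57), a TALE homeobox gene, *Uncx* (-4.94), a paired-type homeobox gene, *Cbln2* (-4.48), a synaptic organizer, *Lhx9* (-4.18), a LIM homeobox gene, and *Hmgb2* (-3.71), a chromatin protein of dividing cells. *Uncx*, *Lhx9*, *Cbln2* and *Pbx3* were called higher in Ebf2-EGFP+ cells at E11.5, with log2 differences of 4.18, 4.59, 3.91 and 1.83, but *Hmgb2* was lower (-1.53). The largest rises on both lists were those of *Sla* (6.52), an adaptor protein, *Dync1i1* (5.78), a dynein chain of neurons, and *Nfix* (5.27), a nuclear factor I gene. These 3 rose in Ebf2-EGFP- cells as well, by 5.13, 4.47 and 4.39.

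Of 14 genes known as EBF targets in olfactory neurons, B cells or brown fat, 2 were in the table. *Gnal*, the olfactory G protein subunit, rose in Ebf2-EGFP+ cells from 2.38 and 2.37 FPKM at E11.5 to 19.2 and 24.5 FPKM at E15.5 (2.75 on the log2 scale, limma adjusted p = 4.03e-06). It rose in Ebf2-EGFP- cells as well, from a mean of 1.35 FPKM at E11.5 to 8.82 FPKM at E15.5. *Prdm16*, a regulator of brown fat and of neural stem cells, was lower in the fluorescent cells throughout, by log2 differences of -2.45, -2.91 and -2.28.

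Markers of other cells in the dissected tissue moved with stage too. The 8 markers of meninges or fibroblasts summed to 57.5 to 65.9 FPKM in the E11.5 Ebf2-EGFP+ libraries and to 152 to 180 FPKM in the Ebf2-EGFP- libraries, and none was listed at 0. At E13.5 the sums were 1.65 to 3.16 and 8.75 to 11.6 FPKM, and at E15.5 3.23 to 4.43 and 7.60 to 8.10 FPKM. From E11.5 to E13.5, 7 of the 8 fell in Ebf2-EGFP+ cells and 8 in the non-fluorescent cells, against 36.1% and 33.5% of all genes. All 8 were lower in Ebf2-EGFP+ cells at E11.5, against 44.9% of all genes, where *Ebf1* was higher. Of 9 erythroid genes 4 were in the table, with sums from 32.9 to 97.1 FPKM in the E11.5 Ebf2-EGFP+ libraries, from 1306 to 2752 FPKM in their Ebf2-EGFP- counterparts and at most 23.2 FPKM at E15.5. Of 10 markers of striatal projection neurons, where *Ebf1* is known, 8 were in the table. From E11.5 to E15.5 in Ebf2-EGFP+ cells 4 of them rose and 4 fell, against 33.3% and 42.1% of all genes, with a median log2 change of -0.32. Their sum was between 25.4 and 26.5 FPKM in the E11.5 and between 75.0 and 104 FPKM in the E15.5 libraries, of which *Ppp1r1b* alone made up 1.10 and 79.1 FPKM on average. The part of these cells in the levels of *Ebf1* was not tested.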

How the data were processed

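Bulk RNA-seq covered 12 libraries in 6 groups (3 stages, 2 sorted populations). According to the study's methods and the submitters' processing notes, the authors aligned paired-end reads of polyadenylated RNA to mm10 with TopHat2 2.0.8b and computed expression with Cufflinks 2.2.0. The authors deposited FPKM per library for genes they listed as differential, beside fold ratio and p-value columns of their own comparisons, which were not used.

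Columns were matched to libraries by the stage, population and replicate in their names. The values were transformed to log2(FPKM + 1) and fitted with limma 3.58.1 (R 4.3.3) as 6 groups sharing 1 variance estimate with a trend, in 11 comparisons, two-sided, Benjamini-Hochberg adjusted over 4859 genes. The fit was tested on simulated data. The labels number replicates 1 and 2 and the methods call them biological replicates. P-values measure the spread between these libraries. Deviations of same-numbered libraries correlated at 0.431, 0.534 and 0.431 across genes at the 3 stages, which gave the pairing for the fit with a block.

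Whole fragments could not be recovered from the FPKM, so the depth per library is unknown and no counting interval was computed. Members and lists were chosen with earlier results of these data known. The named genes were the members, the 5 genes of the gene expression table and 2 of the lncRNA table with the highest r to each, the listed regulators, zinc fingers and EBF targets, the 3 EBF2 targets on each list with the largest rise and fall, and markers set beside a result. Some genes that this rule covers are not reported. Alternatives were a pseudocount of 0.1, median-of-ratios scaling, a mean FPKM of at least 1, no variance trend, the compared groups only, a replicate block, a threshold of 0.01 and omission of each library. Positions came from the GENCODE annotation of GRCm38, and promoter windows from RefSeq (GRCm38.p6), Python 3.11.15.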

Additional observations from a re-analysis of the deposited data

Results flagged for a closer look

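The change of the population difference from E11.5 to E13.5 differed from 0 for each *Ebf* gene by the limma interaction test, at -1.62 for *Ebf1*, -3.27 for *Ebf2* and -1.83 for *Ebf3*, so the contrast between the populations was not the same at these stages. From E13.5 to E15.5 it differed for *Ebf3*, at 1.21. Groups of 2 libraries are too small to ask whether a library stands apart from its group.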

How the results depend on the processing

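Of 33 gene results, the 3 members in 11 comparisons, 26 kept their direction and their side of the threshold in 7 alternatives and 12 omissions of a library. Median-of-ratios scaling turned the *Ebf1* difference at E13.5 to 0.0083, and the omissions spanned -0.45 to 0.0645, the latter without E13.5 Ebf2-EGFP+ replicate 2. The change of *Ebf1* from E13.5 to E15.5 in Ebf2-EGFP+ cells (-0.55) became called with a pseudocount of 0.1 (-0.93), scaling (-0.57), the filter on mean FPKM (-0.55) and no variance trend (-0.55), and ranged from -0.81 to -0.30 over omissions. It was called without E13.5 Ebf2-EGFP+ replicate 2 (-0.81). The *Ebf2* change from E11.5 to E13.5 in Ebf2-EGFP- cells ranged from -0.0057 to 0.30, the former without E13.5 Ebf2-EGFP- replicate 1, and the widening of its difference from E13.5 to E15.5 was called with a pseudocount of 0.1 (2.43). For *Ebf3* from E13.5 to E15.5, a threshold of 0.01 ended the rise in Ebf2-EGFP+ cells (0.71), the fall in Ebf2-EGFP- cells (-0.50) and the widening (1.21) as calls. Scaling (-0.43) and the replicate block (-0.50) ended that in Ebf2-EGFP- cells, and fitting the compared groups only ended the widening (1.21). Omissions spanned 0.47 to 0.96, -0.67 to -0.33 and 0.97 to 1.46. The cause of these shifts was not tested. The replicate block changed no other call of a member. Genes called for the change of the difference from E13.5 to E15.5 numbered 610, against 138 with the compared groups only, 1775 with the replicate block, which uses the pairing, and 125 to 1135 over omissions. Genes called from E13.5 to E15.5 ranged from 1247 to 2131 in Ebf2-EGFP+ cells (2035 in the fit of all libraries, 1247 without E13.5 Ebf2-EGFP+ replicate 1) and from 1962 to 3129 in Ebf2-EGFP- cells (3089, and 1962 without E13.5 Ebf2-EGFP- replicate 1). How deeply each single library was sequenced is unknown, and 2 libraries per group limit the precision.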
